A study of Mus musculus with 1824 samples.

Results

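Epiblast cells at E7.5 were described here from single-cell RNA-seq of sorted cells of mouse embryos at embryonic day 7.5, when gastrulation is under way. A cell was called an epiblast cell if it had at least 100000 reads, at least 4 of the markers *Pou5f1*, *Utf1*, *Slc7a3*, *Fgf5* and *Pim2* at 20 CPM or more (reads of the gene scaled to an equal total of reads in every cell), and fewer than 2 of the primitive streak genes *T*, *Mixl1* and *Mesp1* at that level. The rule was met by 58 cells of 4 named chimeric embryos, 28 cells of a further chimera plate and 38 cells of 6 plates known by a lane number. Together these were 12.97% of the E7.5 cells with at least 100000 reads (95% Clopper-Pearson interval 10.91% to 15.27%, counting error only). The series held 1824 cells on 19 plates of 96 wells, 11 of them from E7.5 and 8 from E8.5, and epiblast cells were 6.80% of all cells. No E8.5 cell with at least 100000 reads met the rule.

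The study profiled RNA, and in part of the cells DNA methylation too, in embryos that lacked the TET dioxygenases in part of their cells, and the RNA is described here. The E7.5 cells came from 11 plates, each analysed as a unit. Embryos 1, 2, 4 and 5 had 1 plate each. A further plate, the chimera plate, has no embryo number, and 6 plates are known only by a lane number. The column names mark embryos 1, 2, 4 and 5 and the chimera plate all as Tet chimeras. The labels give the strain as CD1 and the tissue as E7.5 embryo for the E7.5 cells. Per the study's methods, embryonic stem (ES) cells with all of *Tet1*, *Tet2* and *Tet3* knocked out (*Tet*-TKO) carried a CAG-driven H2B-tdTomato reporter, and were injected into C57BL/6J blastocysts that were transferred to CD1 recipients. The labels give no genotype or sort gate for a single cell, so knockout and host cells cannot be told apart here. The genotypes on each plate are not known, and a level below may cover knockout cells, host cells or both. Per the methods, cells were stained for KDR and CD41 before live singlets were sorted, so the shares of cells below describe sorted wells and not an embryo's make-up.

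The epiblast is the pluripotent epithelium of the embryo proper, from which all 3 germ layers form. The transcription factors POU5F1 and SOX2 maintain its pluripotency, OTX2 and POU3F1 mark its formative and primed states, and the DNA methyltransferases DNMT3A and DNMT3B methylate its genome after implantation. At the posterior side, Nodal, Wnt and FGF signals drive cells into the primitive streak, where they lose E-cadherin, become migratory and form mesoderm and endoderm.

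The share of epiblast cells differed widely between plates. They made up 21 of 92 cells of embryo 1 (22.8%, interval 14.7% to 32.8%) and 30 of 94 cells of embryo 2 (31.9%, 22.7% to 42.3%). Embryos 4 and 5 held 5 of 91 (5.49%, 1.81% to 12.4%) and 2 of 88 (2.27%, 0.276% to 7.97%). On the chimera plate 28 of 94 cells met the rule (29.8%, 20.8% to 40.1%), and on lane plates 4, 5 and 6 the counts were 7 of 83, 10 of 65 and 21 of 83. Lane plates 1, 2 and 3 had none among 93, 89 and 84 cells, with upper interval limits of 3.89%, 4.06% and 4.30% (3 counts of the total would be 3.23%, 3.37% and 3.57%). The intervals of embryos 1 and 2 and the chimera plate lay entirely above those of embryos 4 and 5. The plates also differed in other cells. Extraembryonic ectoderm cells, as defined below, were 50 on embryo 4, 36 on embryo 5 and 0 on embryos 1 and 2 and the chimera plate. What set these shares was not tested.

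**Figure D1:**
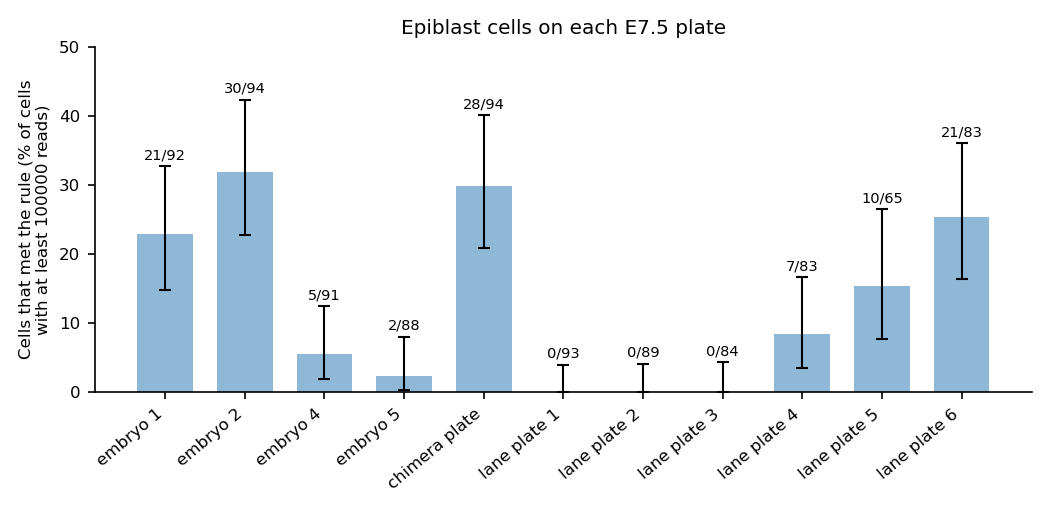
Share of cells with at least 100000 reads that met the epiblast rule, in percent, on each of the 11 E7.5 plates. Bars give the share, error bars the 95% Clopper-Pearson interval and the labels the cells out of all cells. Embryo 2 has the highest share at 31.9% and lane plates 1 to 3 have none.

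The marker levels that chose the cells are given as a description only, since the cells were selected on them. Median levels over the epiblast cells were 763.5 CPM for *Pou5f1*, 361.2 CPM for *Utf1*, 575.9 CPM for *Slc7a3*, 185.8 CPM for *Fgf5* and 1037.2 CPM for *Pim2*. These medians lay far above the threshold, and all but 23 cells had all 5 markers. The markers missing in these 23 were *Fgf5* in 14, *Utf1* in 5 and *Slc7a3* in 4. *T* reached 20 CPM in 13 cells, *Mixl1* in 10 and *Mesp1* in 0. Just outside the rule, 26 cells with 3 markers and under 2 streak genes had medians of 129.5 CPM for *Pou5f1*, 5.97 CPM for *Utf1* and 95.8 CPM for *Pim2*. Another 61 cells had 4 or 5 markers but 2 or 3 streak genes, with medians of 715.2 CPM for *Pou5f1* and 22.6 CPM for *Utf1*. Raising the threshold to 40 CPM gave 1 cell fewer and lowering it to 10 CPM 1 cell more.

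Epiblast genes that the rule did not use were present in very different shares of the cells. *Otx2* had 20 CPM or more in 97.6% of the cells, the epithelial adhesion gene *Epcam* in 99.2%, and *Dnmt3b* in every cell. The pluripotency factor *Sox2* reached that level in 62 cells and *Pou3f1* in 85, *Nanog* in 46.8%, *Sox3* in 12.9% and *Foxd3* in 4.03%. No epiblast cell reached 20 CPM for *Kdr* (the VEGF receptor stained for the sort), *Elf5* (extraembryonic ectoderm) or *Ttr* (visceral endoderm). However, 3 cells went against the label: 1 on embryo 1 and 2 of the 7 on lane plate 4 had both *Cer1* and *Sox17*, genes of the anterior and definitive endoderm, at 20 CPM or more. Their *Cer1* levels were 1795, 485.01 and 700.8 CPM, and their *Utf1* levels 16.2, 0 and 0 CPM. Also, 10 epiblast cells had *Hba-x*, an embryonic globin, at 20 CPM or more, 8 of them among the 10 on lane plate 5.

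Depth was alike on both sides of the comparison. The epiblast cells had a median of 765383 reads (131161 to 2079083), and the other E7.5 cells of that depth 730787.5 (100941 to 6162793). Thinned to 100000 reads, the medians were 7417 genes detected in epiblast cells and 6977 in the others. Mitochondrial reads were 2.01% and 2.17%, and ribosomal protein reads 7.89% and 7.70% (medians). Lane plate 5 was the shallowest of the plates compared, with a median of 217922.5 reads in its epiblast cells. None of the cell columns was a copy of another.

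To see which genes set epiblast cells apart from the rest of the embryo, reads were summed over the epiblast cells and over the other cells of each plate. The comparison used the 5 plates with at least 10 cells on each side (embryos 1 and 2, the chimera plate and lane plates 5 and 6), which held 110 of the epiblast cells. The log2 ratio of (CPM + 1) was taken within each plate, which understates the change of low genes, and is given as mean ± SD over plates. A gene was counted as higher or lower where the mean ratio was at least 1 in size and had the same sign on all plates. Because the cells were chosen by their own RNA, no test was run and the counts are descriptions. Of 9413 genes with at least 10 CPM on either side, 3.35% were higher and 7.5% lower in epiblast cells, and the median ratio over all of them was -0.08. CPM is not scaled for transcript length, so levels are compared between cells and not between genes.

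With the genes of the rule left out, the gene with the largest ratio was *Mal2*, a membrane protein of apical transport in epithelial cells (chr15:54571192-54602847, GRCm38). Its level in epiblast cells was 98.5 CPM on embryo 1, 60.1 on embryo 2, 45.7 on the chimera plate, 22.9 on lane plate 5 and 51.01 on lane plate 6. In the other cells it was 4.53, 3.64, 2.50, 0.304 and 0.554 CPM on the same plates. The lowest epiblast plate was thus above the highest plate of other cells, and the log2 ratio was 4.18 ± 0.55 (n = 5 plates). *Spp1*, which encodes the secreted matrix protein osteopontin, followed at 3.96 ± 0.68. Its epiblast levels were 31.9, 27.7, 49.2, 8.14 and 19.4 CPM, against at most 1.19 CPM in the others and no read on lane plate 5. Reads of *Spp1* were detected in 44.4% of epiblast cells and 1.68% of other cells at 100000 reads each (53.2% and 3.13% before thinning).

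The rest of the 15 leading genes covered several kinds of protein. *Slc27a2*, a fatty acid transporter and acyl-CoA synthetase, was higher by 3.67 ± 0.49 and the transcription factor *Myb* by 3.61 ± 0.33. *Gdf3*, a TGF-beta family ligand, was higher by 3.52, and the octamer-binding factor *Pou3f1* by 3.32 ± 1.16. *Prrg4*, a membrane protein with a Gla domain, was higher by 3.55, and *Mcf2*, a guanine nucleotide exchange factor, by 3.36. *Enpp3*, an ectonucleotidase, was higher by 3.32 and the vesicle protein gene *Syt11* by 3.07, and *Slc35d3*, *Dtx1* and *1700019D03Rik* lay between these values. The non-coding *Platr10* and *Gm32585* were also among them. *Platr10* stood at 99.4, 108.7, 104.1 and 63.8 CPM in the epiblast cells of embryos 1 and 2, the chimera plate and lane plate 6, and at 418.2 CPM on lane plate 5.

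**Figure D2:**
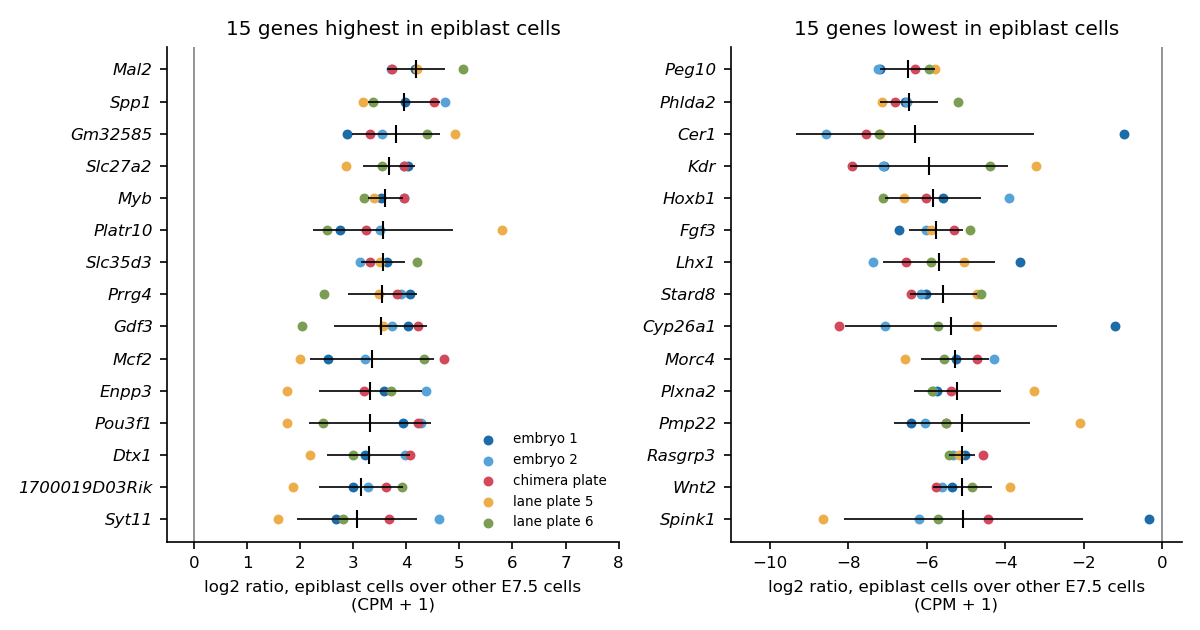
log2 ratio of epiblast cells over other E7.5 cells, from CPM + 1, for the 15 genes with the highest and the 15 with the lowest mean ratio, genes of the rule left out. Coloured points are the 5 plates, and the black mark and bar are the mean and SD over plates. *Mal2* leads at 4.18, *Peg10* is lowest at -6.50, and *Cer1* and *Cyp26a1* have 1 plate (embryo 1) near 0.

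Among the 15 genes with the lowest ratios, the first were *Peg10* (-6.50 ± 0.69) and *Phlda2* (-6.45 ± 0.74), imprinted genes known for their roles in the placenta. *Phlda2* had 7.51, 7.10, 9.12, 9.69 and 29.2 CPM in epiblast cells, against 800, 741.6, 1134, 1511 and 1108 CPM in the others. These groups were far apart on every plate. *Kdr*, *Wnt2* (-5.10), *Pmp22*, *Plxna2*, *Rasgrp3*, *Stard8* and *Morc4* were also among them, with *Kdr* at -5.95 ± 2.02. *Hoxb1*, *Fgf3* and *Lhx1*, genes of the streak and early mesoderm, had ratios of -5.85, -5.78 and -5.70. The signalling antagonist *Cer1*, the retinoic acid-degrading enzyme *Cyp26a1* and *Spink1* completed the list, at -6.31 ± 3.04, -5.39 ± 2.69 and -5.07 ± 3.05. Their wide spread came with embryo 1, where the epiblast cells had 94.9 CPM of *Cer1* against at most 0.388 CPM on the other plates. Without the cells that had *Cer1* and *Sox17*, the ratios were -7.25 for *Cer1*, -6.58 for *Cyp26a1* and -5.90 for *Spink1*.

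POU5F1 and POU3F1 bind the octamer ATGCAAAT, so the 250 bases before each RefSeq transcript start (GRCm38.p6) were searched for it on both strands (reverse complement ATTTGCAT). It was present in 1.60% of all 32851 promoters, in 1.15% of the promoters of the genes tested, in 8 promoters (2.39%) of genes higher in epiblast cells and in 12 (1.63%) of genes lower. A match describes the sequence and says nothing of binding, and the shares were not tested. Printed are the promoters of leading genes with a match (*Spp1* and *Prrg4*), the rule marker *Pim2*, and *Chchd10*, a mitochondrial protein gene chosen after its values were seen because it held 2 matches. Sequences run 5′ to 3′ on the gene's strand, end at the base before the start, and have the octamer in capitals.
Spp1: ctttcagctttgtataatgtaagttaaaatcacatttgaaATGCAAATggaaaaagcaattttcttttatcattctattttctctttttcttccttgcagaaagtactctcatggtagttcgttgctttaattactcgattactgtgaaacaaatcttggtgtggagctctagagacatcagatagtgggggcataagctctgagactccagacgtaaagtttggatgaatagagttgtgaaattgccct
Prrg4: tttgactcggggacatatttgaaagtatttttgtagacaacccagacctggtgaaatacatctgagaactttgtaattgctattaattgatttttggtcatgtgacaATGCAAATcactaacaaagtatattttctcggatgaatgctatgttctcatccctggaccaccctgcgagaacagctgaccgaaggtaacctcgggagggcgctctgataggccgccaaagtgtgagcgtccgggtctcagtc
Pim2: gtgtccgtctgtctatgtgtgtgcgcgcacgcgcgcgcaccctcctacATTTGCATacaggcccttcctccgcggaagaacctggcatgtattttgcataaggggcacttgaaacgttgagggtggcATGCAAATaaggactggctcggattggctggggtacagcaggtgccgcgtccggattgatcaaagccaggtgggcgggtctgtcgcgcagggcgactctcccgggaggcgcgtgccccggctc
Chchd10: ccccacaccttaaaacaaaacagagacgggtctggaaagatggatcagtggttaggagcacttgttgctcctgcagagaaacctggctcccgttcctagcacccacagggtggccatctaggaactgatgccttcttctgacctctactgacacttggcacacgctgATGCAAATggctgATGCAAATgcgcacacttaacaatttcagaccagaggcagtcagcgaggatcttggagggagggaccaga

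The *Spp1* window is chr5:104435942-104436191 on the plus strand, with the match beginning 210 bases before the start. The window lies inside the span that the annotation gives the gene, ahead of the RefSeq start. *Prrg4* has 1 match (chr2:104849851-104850100, minus strand). *Pim2* has 2, of which the one nearer to the start reads on the gene's strand and the other on the opposite strand (chrX:7878056-7878305, plus strand). *Chchd10* has 2 matches on the same strand, 83 and 70 bases before the start (chr10:75932880-75933129, plus strand). *Chchd10* had 72.7 ± 12.4 CPM in epiblast cells and 20.95 ± 10.7 CPM in the others, a log2 ratio of 1.86 ± 0.47.

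Of 18 genes of core and formative pluripotency, 15 had at least 10 CPM, of which 4 were higher and 1 lower in epiblast cells, with a median ratio of 0.69. Over all genes 3.35% were higher and 7.5% lower. *Sox2* had 26.6, 16.4, 22.1, 28.7 and 52.1 CPM in epiblast cells of embryos 1 and 2, the chimera plate and lane plates 5 and 6, and 2.43, 1.53, 1.38, 19.4 and 11.3 CPM in the other cells. The gap was wide on embryos 1 and 2 and the chimera plate and narrow on lane plate 5, and the ratio was 2.35 ± 1.10. *Otx2*, a homeobox factor of the formative epiblast and later of the forebrain, had 217.6, 276.6, 275.4, 288.8 and 163.4 CPM against 92.8, 114.4, 134.8, 48.1 and 37.1 CPM, a ratio of 1.64 ± 0.66 with no overlap. *Pou3f1* had 59.1, 59.97 and 60.2 CPM on embryos 1 and 2 and the chimera plate but 15.9 and 23.2 CPM on lane plates 5 and 6. In the other cells *Pou3f1* stayed between 2.16 and 4.03 CPM on these plates. *L1td1*, an RNA-binding protein gene of pluripotent cells, was higher by 2.49 ± 0.34.

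*Nanog*, a pluripotency factor that is also expressed at the posterior side of the gastrulating embryo, did not follow these genes. It had 43.5, 60.9, 64.4, 3.10 and 25.7 CPM in epiblast cells and 61.97, 48.04, 27.3, 32.2 and 40.7 CPM in the others. The groups overlapped, epiblast cells were above the others on embryo 2 and the chimera plate alone, and the ratio was -0.52 ± 1.58. The lower gene of the list, *Tdgf1* (the Nodal co-receptor Cripto), had 311.3, 254.2, 425.8, 264.4 and 89.6 CPM in epiblast cells, a mean of 269.1 ± 121.2 CPM. The others had 660.8 ± 295.7 CPM, and the ratio was -1.33 ± 0.64. With the reads of all 11 plates pooled, plates without epiblast cells included, the ratios were 1.55 for *Nanog* and 0.013 for *Tdgf1*. Taken within the 7 plates with at least 5 cells on each side, they were 0.41 and -0.65. On the added plates *Nanog* was above the others, with 71.4 against 12.6 CPM on embryo 4 and 75.5 against 8.22 CPM on lane plate 4. *Tdgf1* was below them on embryo 4 (71.03 against 111.5 CPM) and above on lane plate 4 (422.5 against 63.8 CPM), so neither gene had 1 direction over the plates. *Lin28a* and *Sall4* differed by less than 1 on the log2 scale (0.10 and -0.18). *Zic2*, a zinc finger factor, was above the others on all 5 plates at 0.93 ± 0.33, just under the size counted.

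Naive pluripotency, the state before implantation, left little trace in epiblast cells. Of 12 genes, 8 were under 10 CPM on both sides as means over plates, among them *Zfp42*, *Esrrb*, *Klf2*, *Prdm14* and *Tfcp2l1*. Of the other 4, *Klf4* (-1.16 ± 0.77), *Klf5* (-2.32 ± 1.64) and *Tbx3* (-4.02 ± 2.14) were lower in epiblast cells, none was higher, and the median ratio was -1.74. *Klf4* was near the 10 CPM limit and was not counted without embryo 1 (-0.94), lane plate 5 (-1.30) or lane plate 6 (-1.41). *Zfp42* (Rex1) reached 20 CPM in 2 epiblast cells. Germ cell genes were also low. Of 8 genes 3 had at least 10 CPM, *Tfap2c* was lower (-1.86 ± 0.68), and *Dppa3* had a read in 1 epiblast cell.

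The de novo DNA methyltransferases were the members of their list that stood out. *Dnmt3b* (chr2:153649450-153687730) had 2461, 3445, 3070, 2156 and 2763 CPM in epiblast cells on the 5 plates. In the other cells it had 632.5, 687.5, 711.5, 608.7 and 582.4 CPM. The 2 groups were far apart, and the ratio was 2.09 ± 0.20. *Dnmt3a* had 369.1, 467.2, 453.4, 341.9 and 322.4 CPM against 121.99, 107.4, 104.9, 134.3 and 110.4 CPM, a ratio of 1.74 ± 0.35. *Tet1*, which oxidises 5-methylcytosine, had 174.04, 153.5, 128.8, 142.6 and 137.1 CPM against 104.1, 95.7, 65.3, 66.1 and 75.8 CPM. It did not overlap between the sides, but its ratio of 0.86 ± 0.17 was below the size counted. The maintenance genes *Dnmt1* and *Uhrf1* differed by -0.09 and -0.04, *Tet3* by 0.31 and *Tet2* by -0.61. In all, 2 of 8 measured genes were higher and none lower (3.35% and 7.5% over all genes), with a median of 0.13. Knockout and host cells were not separated for these *Tet* levels.

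**Figure D3:**
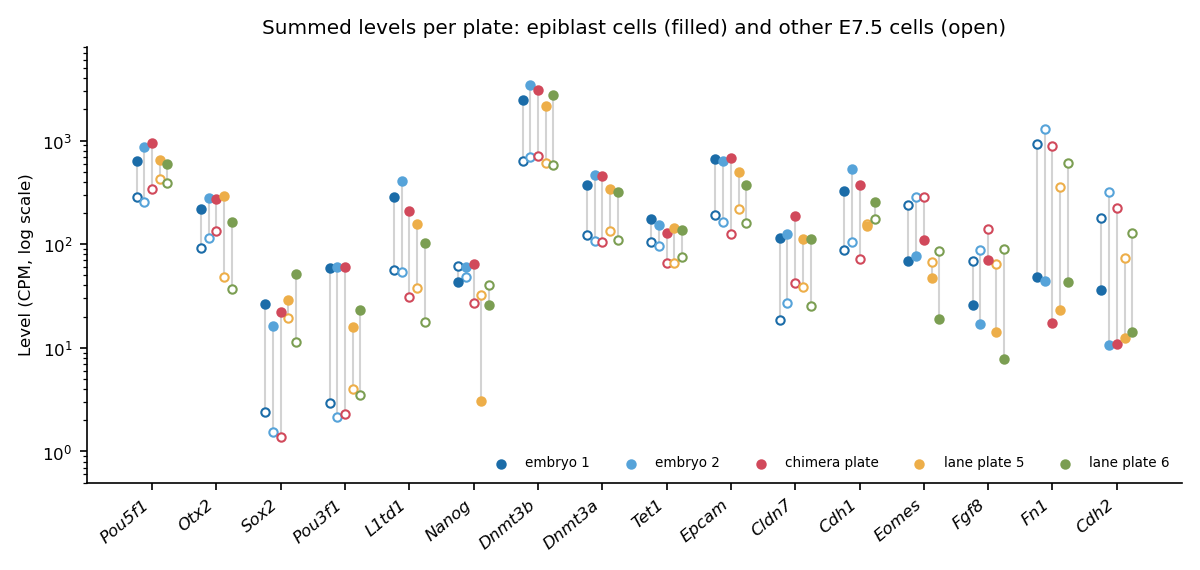
Level in CPM on a log axis for 16 genes, from reads summed per plate over epiblast cells (filled) and other E7.5 cells (open), with a grey line joining both on each of the 5 plates. *Dnmt3b* and *Dnmt3a* do not overlap between the sides, *Nanog* does, and *Fn1* and *Cdh2* lie lower in epiblast cells on each plate.

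Genes of Nodal signalling, which patterns the epiblast, were mostly at like levels or lower. Of 13 measured genes 1 was higher and 4 lower (3.35% and 7.5% over all genes), with a median ratio of -0.56. Among the ligands, *Gdf3* was higher, with 30.3, 41.6, 36.8, 36.8 and 4.80 CPM against 0.902, 2.19, 1.03, 2.20 and 0.422 CPM. It had no read in the epiblast cells of embryo 4 and lane plate 4, and was not counted with 7 plates (2.45). *Nodal* itself was not past the fold (-0.17 ± 1.35, 0.58 with 7 plates and 1.65 with all plates pooled). Of the co-receptor, transducers and targets, *Tdgf1*, *Smad3*, *Lefty2* (-5.01) and *Cer1* were lower. Without lane plate 5, *Smad3* was not counted (-0.70 rather than -1.22). *Foxh1*, the DNA-binding partner of SMAD2, was below the others on all plates at -0.76 ± 0.28.

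In the FGF-ERK list 1 of 13 measured genes was higher and 4 lower (3.35% and 7.5% over all genes), with a median of -0.47. Of the ligands, *Fgf8*, which is expressed in the streak, had 25.9, 17.01, 71.1, 14.3 and 7.77 CPM against 68.4, 87.1, 140, 63.8 and 89.1 CPM (-2.01). Of the receptors, *Fgfr2* and *Fgfr3* were lower, with ratios of -1.71 and -2.18 that were -0.98 and -1.49, and not counted, without lane plate 5. *Fgfr1* differed by -0.55 ± 0.21. The inhibitor *Spry1* was higher (1.46 ± 1.04), and the inhibitor *Spred1* lower (-1.81 ± 0.29). Ectoderm genes showed little. Of 12, *Sox1*, *Pax6*, *Six3* and 6 others were under 10 CPM on both sides, *Gbx2* was lower (not counted without lane plate 5, at -1.97, or lane plate 6, at -1.30), and the tight junction gene *Cldn6* was above the others on 4 of 5 plates (1.11 ± 0.98).

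The streak and mesoderm list held 18 genes that the rule did not use, and 17 of them were lower in epiblast cells (7.5% over all genes), with a median of -3.27. The list describes the kind of cell that the rule left out. *Eomes*, a T-box factor of the streak, had 68.8, 76.6, 108.7, 46.9 and 19.04 CPM in epiblast cells and 239.7, 283.7, 283.6, 67.7 and 85.9 CPM in the others. Although lower on each plate, it was still at 20 CPM or more in 73 epiblast cells. *Evx1* (-2.997 ± 0.23), *Wnt3* (-2.68 ± 1.02) and the Wnt target *Sp5* (-4.42 ± 0.50) were lower as well. *Foxa2*, a factor of the anterior streak and endoderm, was the exception, with a ratio of -1.85 ± 1.46 and 1 plate in the other direction. *Wnt3a* and *Nkx1-2* were not counted without lane plate 5 (-2.06 and -0.98) or lane plate 6 (-2.07 and -0.85).

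Epithelial genes split. *Epcam* had 658.4, 640.5, 678.2, 500 and 370 CPM in epiblast cells against 192.7, 165.02, 124.3, 216.3 and 158.5 CPM, a ratio of 1.72 ± 0.52 with no overlap. The tight junction gene *Cldn7* (2.096), the polarity gene *Crb3* (2.102 ± 0.77) and the laminin receptor subunit *Itga6* (1.37 ± 0.17) were also higher. None of these 3 was counted with 7 plates, because *Cldn7* (59.8 against 124.5 CPM) and *Crb3* (15.65 against 25.4 CPM) were below the others on embryo 4 and *Itga6* (11.6 against 48.8 CPM) on lane plate 4. *Cdh1*, which encodes E-cadherin, had 328.3, 537.3, 369.1, 149.2 and 253.4 CPM against 88.03, 105.01, 72.3, 155.96 and 175.4 CPM, and lay below the others on lane plate 5 alone. The keratins of simple epithelia, *Krt8* (-3.68 ± 1.52) and *Krt18* (-2.03 ± 0.57), were lower. So were genes of the mesenchymal state, with *Fn1* (fibronectin) at 48.6, 44.1, 17.3, 23.3 and 43.5 CPM against 932.8, 1299, 884.2, 352.6 and 605.9 CPM (-4.46 ± 0.76). *Cdh2* (N-cadherin, -3.37), *Vim* (vimentin, -1.82 ± 0.43) and the repressor *Snai1* (-3.02 ± 0.76) shared this direction. In all, 4 of 15 measured genes were higher and 8 lower, against 3.35% and 7.5% over all genes.

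Of 17 measured cell cycle genes none was higher and 3 were lower, which were *Ccnd2* (cyclin D2, -1.998 ± 0.44) and the inhibitors *Cdkn1a* (-1.27 ± 0.65) and *Cdkn1c* (-2.37 ± 1.06). *Ccnd1* differed by 0.20 ± 0.29 and *Mki67* by -0.45 ± 0.33, and *Mycn* was above the others on all plates at 0.54 ± 0.27. Of 14 genes of glucose and amino acid transport and glycolysis, the monocarboxylate transporter *Slc16a1* was lower (-1.08 ± 0.64, and -0.93 without lane plate 6) and none was higher. Over all genes 3.35% were higher and 7.5% lower, and 1 lower gene of 14 is close to that share. *Ldha*, the lactate dehydrogenase of glycolysis, had 6370, 6237, 8418, 7193 and 7511 CPM against 5775, 5752, 7215, 6779 and 6635 CPM.

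Markers of other cell types were present to different degrees. The summed level of 10 extraembryonic ectoderm markers ranged over the 5 plates from 32.06 to 131.1 CPM in epiblast cells and from 381.6 to 468.8 CPM in the others, and *Elf5* had no read in epiblast cells. For 6 endothelial markers the ranges were 5.33 to 15.8 and 57.3 to 324.5 CPM, and for 7 extraembryonic mesoderm markers 4.59 to 18.99 and 163.7 to 448.96 CPM, with *Postn* at 0. For 8 visceral endoderm markers they were 132.2 to 220.03 and 207.4 to 1552 CPM, which overlapped, with *Ttr*, *Apoa1*, *Apob*, *Afp* and *Cubn* each under 1 CPM in epiblast cells. In epiblast cells with no streak gene at 20 CPM, pooled over 5 plates, *Apoe* had 159.5 CPM, *Amn* 4.39 CPM and *Rbp4* 1.70 CPM. The 5 definitive endoderm markers summed to 150.8 to 249.2 CPM against 285.96 to 684.07 CPM, and 1 of them, *Trh*, was at 20 CPM or more in 60.5% of epiblast cells and 12.3% of the others. Blood markers summed to 0.446 to 1.93 CPM in the epiblast cells of 4 plates and to 101.9 CPM on lane plate 5, where the other cells had 140.99 CPM. The part of these reads in the results for lane plate 5 was not tested. Without lane plate 5, the number of genes counted as higher was 1.416 times and that of genes counted as lower 0.877 times the number with it. That setting used 4 plates, and the same sign on all plates is easier to meet with fewer plates. The lists of other cell types had 0 higher genes, and lower were 4 of 5 measured for extraembryonic ectoderm, 1 of 6 for visceral endoderm (*Apoe*, not counted without lane plate 5, at -0.74), 2 of 5 for definitive endoderm, 0 of 2 for blood, 2 of 2 for endothelium and 4 of 4 for extraembryonic mesoderm. Over all genes 3.35% were higher and 7.5% lower. The lower extraembryonic ectoderm genes were *Cdx2*, *Eomes*, *Tfap2c* and *Bmp4*. Of these, *Cdx2* and *Eomes* were also counted in the streak and mesoderm list, and *Bmp4* in that of extraembryonic mesoderm.

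The other cells were not of 1 chosen type, so epiblast cells were next set against streak-positive cells, the cells nearest to them in the embryo. These had at least 2 of the 3 streak genes (330 cells over all plates). They made up 60 of 71 other cells on embryo 1, 56 of 64 on embryo 2 and 58 of 66 on the chimera plate. On lane plates 5 and 6 they were 26 of 55 and 39 of 62. The 2 comparisons thus share many cells, and like results in both are not separate evidence. The streak comparison used the 7 plates with at least 5 cells on each side, so not all streak-positive cells entered. Of 9445 genes, 2.81% were higher and 560 (5.93%) lower in epiblast cells, with a median of -0.10 over all genes. The rule used *T*, *Mixl1* and *Mesp1* here as well, and the counts are descriptions. *Pou5f1*, at 678.7 ± 165.4 CPM in epiblast and 366.8 ± 140.8 CPM in streak-positive cells, was higher on all 7 plates but by less than 1 (0.94 ± 0.56), and so was *Fgf5* (0.91 ± 0.48). The largest ratios were those of *Slc27a2* (4.09), *Mal2* (3.98), *Myb* (3.82), *Mcf2*, *Pou3f1* (3.81 ± 0.52), *Platr10*, *1700019D03Rik* and the kinesin gene *Kif1a* (3.48 ± 1.12). The lowest were those of *Phlda2* (-6.67), *Kdr* (-6.19), *Hoxb1*, *Peg10*, *Fgf3*, *Lhx1*, *Plxna2* and *Rasgrp3* (-5.61). *Lhx1* stood at -0.86 on lane plate 4, and its mean was -5.65 with and -6.76 without the cells that had *Cer1* and *Sox17*.

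By list, the same 4 pluripotency genes as against all other cells were higher than in streak-positive cells. *Sox2* had 30.3 ± 11.6 CPM against 2.77 ± 1.92 CPM, and *Otx2* 250.9 ± 87.1 CPM against 89.3 ± 41.3 CPM. *Dnmt3b* had 2960 ± 1122 CPM against 654.4 ± 114.7 CPM (2.12 ± 0.42), and *Dnmt3a* 373.2 ± 98.2 CPM against 136.8 ± 32.3 CPM (1.42 ± 0.74). No gene of the Nodal list passed in either direction out of 14 measured, with a median of -0.53. Of the streak and mesoderm list 17 of 18 were lower (median -3.67), with *Eomes* at -1.79 ± 0.55. The glucose transporter *Slc2a1* was higher here, with 1211 ± 196.6 CPM against 569.3 ± 49.2 CPM (1.07 ± 0.17), and *Cldn6* was higher by 1.71 ± 0.68. The groups of *Slc2a1* were far apart for their spread over plates.

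Extraembryonic ectoderm, the trophoblast tissue that lies above the epiblast, is another epithelium of the conceptus at this stage. It was set against epiblast cells on 3 plates (embryo 4 and lane plates 5 and 6). The extraembryonic side was the cells with at least 3 of *Elf5*, *Wnt7b*, *Esrrb*, *Cdx2* and *Tfap2c* at 20 CPM, 96 over all plates. Embryo 4 held 50 of these and lane plates 5 and 6 held 5 each. The epiblast side had 5 cells on embryo 4, 10 on lane plate 5 and 21 on lane plate 6, so each plate had few cells on at least 1 side. Here 1445 of 9598 genes (15.1%) were higher and 1220 (12.7%) lower in epiblast cells, with a median of 0.02. *Pou5f1* had 605.5, 653.9 and 589.2 CPM in epiblast cells and 0.0300, 0.949 and 0.455 CPM in extraembryonic ectoderm cells. *Otx2* had 396.9, 288.8 and 163.4 CPM against at most 0.949 CPM. *Pou5f1* is a marker of the rule, so its gap was fixed in part by the choice of cells, and *Otx2*, which the rule did not use, did not overlap. *Utf1*, although a marker in the rule, was at like levels on both sides, with 311.4, 283.35 and 227.45 CPM in epiblast cells and 297.7, 227.6 and 133.4 CPM in extraembryonic ectoderm cells (0.38 ± 0.36).

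*Sox2*, which also maintains trophoblast stem cells, likewise had 28.5, 28.7 and 52.1 CPM against 26.96, 9.49 and 57.5 CPM, with overlapping groups. *Epcam* (0.29 ± 0.29) and *Cdh1* (-0.23 ± 0.60) were not past the fold between these epithelia. The keratins *Krt8* (-4.31 ± 0.41) and *Krt18* (-3.78 ± 0.57) were lower in epiblast cells. Of the core and formative list 11 of 17 measured genes were higher and 2 lower (*Dppa2* and *Dppa4*), against 15.1% and 12.7% over all genes. Of the naive list 6 of 7 were lower, with a median of -5.03, a list that contains *Esrrb*, used to define the extraembryonic side.

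The methylation enzymes divided between the same 2 tissues. *Dnmt3a* had 461.5, 341.9 and 322.4 CPM in epiblast cells against 17.96, 40.8 and 12.5 CPM (4.08 ± 0.90), and *Dnmt3b* 5139, 2156 and 2763 CPM against 329.7 to 1091 CPM, with a mean of 819.7 CPM (2.12 ± 1.01). *Dnmt3l*, the catalytically inactive partner of the DNMT3 enzymes, went the other way, with no read in the epiblast cells of these plates and 160.8, 99.6 and 47.5 CPM in extraembryonic ectoderm cells. With reads pooled over the 3 plates it was at least 805.7-fold lower in epiblast cells, taking 3 reads over the group as the floor. Pooling weighs the plates differently on the 2 sides, with 50 extraembryonic ectoderm cells on embryo 4 and 21 epiblast cells on lane plate 6. Within each plate the bound is smaller. Over all E7.5 plates, *Dnmt3l* had a read in 6 epiblast cells. *Tet1* was higher (1.07 ± 0.45) and *Tet3* too (1.67 ± 1.42), while *Tet2* was lower (-1.68 ± 0.82). The X-linked homeobox gene *Rhox5* had 1 read in these epiblast cells against 53538 reads (1258 CPM) in extraembryonic ectoderm cells.

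To follow epiblast cells towards the streak, all cells with 4 or 5 epiblast markers were grouped by the number of streak genes at 20 CPM or more. There were 23 cells with 1 and 61 with 2 or 3, which the rule leaves out, and the other epiblast cells had 0. Cells with 0 were compared with cells with 2 or 3 on 5 plates with at least 5 of each (89 and 50 cells). Of 9262 genes, 2.84% were higher in cells with 0 and 3.94% lower. *Pou5f1* had no common direction, with 656.8, 890.7, 937.6, 638.15 and 546.8 CPM in cells with 0 and 656.5, 515.7, 757.03, 898.3 and 779.1 CPM in cells with 2 or 3 (0.02 ± 0.55).

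Pluripotency genes did not move together along these steps. *Pou3f1* was at 62.9, 62.7, 62.2, 15.2 and 21.5 CPM in cells with 0 streak genes and at 7.38, 7.59, 6.32, 0.904 and 0 CPM in cells with 2 or 3 (3.30 ± 0.67). It was lower by several fold on every plate. Both groups were required to hold 4 or 5 markers, and the levels of some markers differed between them as well, with plate means of 426.6 against 42.7 CPM for *Utf1* (3.47 ± 0.84) and 597.4 against 119.2 CPM for *Slc7a3* (2.31 ± 0.72). *Sox2* (1.72 ± 1.09), *Sox3* (2.97 ± 0.48), *L1td1* (1.34 ± 0.49) and *Tcf7l1* (1.42 ± 1.71) were also higher in cells with 0. The gap of *Tcf7l1* was small on embryo 2 (48.6 against 43.8 CPM) and the chimera plate (61.6 against 55.9 CPM). It was largest on lane plate 5 (68.1 against 2.71 CPM), where 5 cells had 2 or 3 streak genes. *Nanog* went the other way, with 41, 57.4, 45.4, 1.64 and 20.5 CPM in cells with 0 and 193.9, 122.1, 57.2, 96.7 and 112.3 CPM in cells with 2 or 3 (-2.25 ± 1.86). *Tdgf1* was lower in cells with 0 as well, with 236.3 against 1181 CPM as plate means (-2.51 ± 0.82).

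Streak genes that define no step followed the streak genes that do. *Eomes* (-3.11 ± 1.36), *Evx1* (-3.23 ± 0.57) and *Fgf8* (-3.51 ± 1.504) were lower in cells with 0. Of 15 measured genes of the streak and mesoderm list 12 were lower and none higher (3.94% and 2.84% over all genes). *Nodal* was lower on all 5 plates, by little on embryo 1 (35.9 against 40.5 CPM) and by much on lane plate 6 (1.45 against 77.4 CPM). *Dnmt3a* was higher in cells with 0 (1.08 ± 0.54), and *Dnmt3b*, at 0.79 ± 0.28, was above on all plates but under the size counted.

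Cells with 1 streak gene, which the rule keeps, lay between for many of these genes when reads were pooled over the 5 plates. *Nanog* had 43.4, 95.1 and 118.8 CPM in cells with 0, 1, and 2 or 3 streak genes. *Eomes* had 58.9, 162.5 and 381.7 CPM, and *Tdgf1* 250, 531.8 and 1271 CPM. The middle group was far nearer to cells with 0 for *Pou3f1* (55.5, 46.3 and 6.20 CPM), *Sox2* (25.4, 23.7 and 6.20 CPM) and *Dnmt3b* (3048, 2895 and 1687 CPM). These pooled values carry no spread, and few cells stand behind the middle one.

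**Figure D4:**
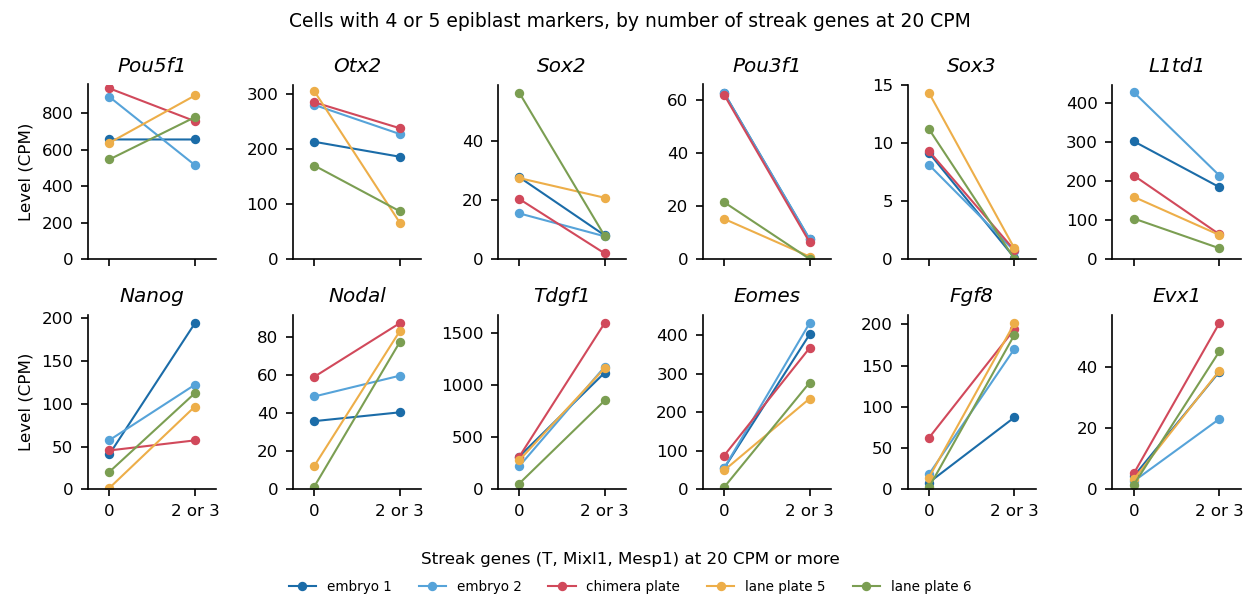
Level in CPM of 12 genes, from reads summed over cells with 4 or 5 epiblast markers and 0 (left) or 2 or 3 (right) of the streak genes *T*, *Mixl1* and *Mesp1*, with 1 line for each of 5 plates. *Pou5f1* has no common direction, *Pou3f1* and *Sox3* are near 0 on the right, and *Nanog*, *Tdgf1*, *Eomes*, *Fgf8* and *Evx1* are higher on the right on each plate.

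The epiblast cells also varied among themselves. The 10 most variable of 3968 genes, ranked by the within-plate SD of log2(CPM + 1) against genes of like level, were *Trh*, *Tdgf1*, *Rps3a3*, *Slc7a3*, *Fst*, *Id1*, *Car2*, *Platr10*, *Grb10* and *Sfrp1*. *Trh*, which encodes thyrotropin-releasing hormone, had no read in 38 epiblast cells, a median of 37.95 CPM and a highest value of 2117 CPM. The 2 highest values, 2117 and 2052 CPM, were those of the lane plate 4 cells with *Cer1* and *Sox17*, which went against the label. *Tdgf1* was at 0 in 16 cells, with quartiles of 37.2 and 436.7 CPM. Several of these genes act in signalling. *Fst* (follistatin, an activin inhibitor) was at 0 in 44 cells, the BMP target *Id1* in 63, and the Wnt antagonist *Sfrp1* in 23. *Slc7a3* is a marker of the rule, so its spread depends on the choice of cells. The rule needs 4 of the 5 markers, and *Slc7a3* was at 0 in 4 cells.

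**Figure D5:**
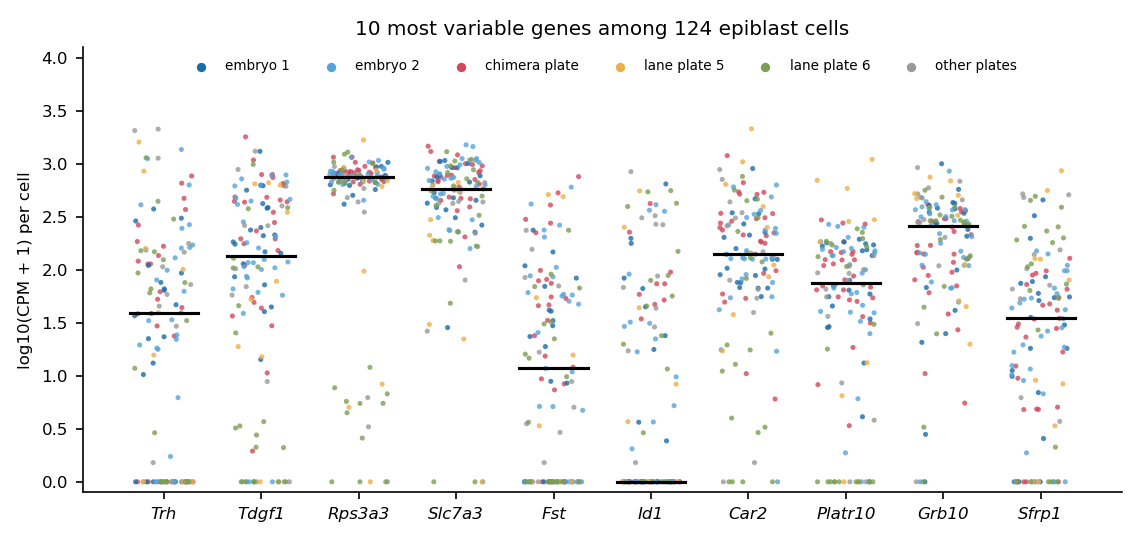
log10(CPM + 1) in each epiblast cell for the 10 most variable genes, with cells coloured by plate and a black line at the median. *Id1* has its median at 0, and *Rps3a3* falls into a large group near its median of 743.6 CPM and a small group of 17 cells under 20 CPM.

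*Nanog* also varied, with no read in 33 epiblast cells, an upper quartile of 75.4 CPM and a highest value of 311.9 CPM. Its rank correlation with *Fgf8* over epiblast cells of a plate ranged from 0.207 to 0.614 on the 5 plates (110 cells) and was positive on all of them. With *Tdgf1* it ranged from 0.0112 to 0.689, and with the marker *Slc7a3* from -0.679 to -0.282. *Evx1* and *Pou3f1* were negatively related on each plate, from -0.499 to -0.177, as were *Fgf8* and *Otx2*, from -0.619 to -0.194. *Sox2* and *Pou3f1* ranged from -0.0897 to 0.421 and were positive on 3 of the 5 plates. These are descriptions over cells that share a plate and differ in depth, and many of their values are 0.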

How the data were processed

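RNA of single E7.5 cells was analysed from the count matrix. Per the labels, sorted cells were treated with a GpC methyltransferase, poly-A RNA was captured and cDNA was amplified by G&T-seq and Smart-seq2. The authors aligned reads with HISAT2 2.1.0 to GRCm38 and counted them per gene with featureCounts, and the deposited values were raw counts. Whether counting used strand or reads with several hits is not given in the sources used here, so paralogues and pseudogenes are uncertain. DNA methylation was not used here.

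The epiblast cells and the gene lists were chosen with earlier results of these data known. Counts were summed per plate and side and scaled to CPM, and a pseudocount of 1 CPM was added. Plates entered with at least 10 cells per side (5 in the streak and extraembryonic ectoderm comparisons and the steps). Plates are technical units, and only 4 of the 11 name an embryo, so the SD over plates covers technical spread, embryos and any pooling. No test was run, since the rule used the same cells' RNA. Genes at 10 CPM or more on either side (plate mean) were counted where the mean log2 ratio was at least 1 in size with the same sign on all plates. Named were genes of the lists (some are not reported here), the 15 highest and 15 lowest against other cells and the 8 highest and 8 lowest against streak-positive cells (20 CPM or more on the higher side, rule genes left out), and the 10 most variable genes. *Chchd10* was added afterwards. Cells were thinned to 100000 reads for detection shares. Wells held sorted singlets and no doublet caller was run. The intervals are on numbers of cells and cover counting error only, not spread between plates or embryos. A read without molecular identifiers is not an independent molecule. Promoter sequences came from RefSeq (GRCm38.p6). The scripts were tested on simulated data and used Python 3.11.15, numpy 2.4.6, pandas 2.3.3 and scipy 1.17.1, and size factors of DESeq2 1.42.0 and TMM factors of edgeR 4.0.16 (R 4.3.3) were the alternative scalings.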

Additional observations from a re-analysis of the deposited data

Results flagged for a closer look

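Of 120 measures over plates, 13 had 1 plate far from the rest by Dixon's 95% criterion, and chance flags about 1 in 20. Several of these came from lane plate 5. In the comparison of epiblast cells with other E7.5 cells, the log2 ratio of *Plxna2* was -3.268 on lane plate 5 and -5.880 to -5.375 on the other plates. *Pmp22* had -2.089 on lane plate 5 against -6.408 to -5.503, *Smad3* -3.339 against -0.9098 to -0.1472, and *Apoe* -2.541 against -1.039 to -0.4621. The blood markers summed to 101.9 CPM in the epiblast cells of lane plate 5 and to 0.4457 to 1.926 CPM on the other 4 plates. *Platr10* had 418.2 CPM there and 63.76 to 108.7 CPM elsewhere. Against streak-positive cells, *Plxna2* had -3.419 on lane plate 5 and -6.398 to -5.454 on the other 6 plates.

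*Cer1* had a ratio of -0.9683 on embryo 1, where 1 of the 21 epiblast cells had *Cer1* and *Sox17*, and of -8.579 to -7.208 on the other plates. On lane plate 6, *Tbx6* had -5.508 against -3.043 to -2.161 elsewhere, and *Hand1* -1.989 against -5.960 to -4.938. Against streak-positive cells, *Myb* had 5.082 on lane plate 4 (3.408 to 3.860 elsewhere). On embryo 4, *Pou3f1* had 2.724 (3.674 to 4.197 elsewhere) and *Phlda2* -9.617 (-6.734 to -5.243 elsewhere).

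In wells left out for low depth, 5 of the 100 E7.5 wells under 100000 reads met the marker part of the rule.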

How the results depend on the processing

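Counts of genes are given here as ratios to those in the report. Against other E7.5 cells, the number of genes counted as higher was 1.683 times that in the report with all 5 markers required (3 plates). It was 1.778 times with the named embryos only (2 plates) and 0.663 times with all 7 plates of at least 5 cells per side. Pooling left 1 ratio per gene, and leaving out a plate left 4, against 5 in the report. The same sign on all plates is easier to meet with fewer plates, and the ratios do not separate this from the setting itself. Pooling reads over plates gave 1.813 times as many higher and 1.626 times as many lower genes, and it turned *Tdgf1* from -1.33 to 0.013 and brought *Eomes* to -0.57 and *Fgf8* to -0.291, under the size counted. Without the filter on low values the number of lower genes was 1.769 times as large. Leaving out each plate in turn gave ratios of 1.041 to 1.416 for higher and 0.877 to 1.19 for lower genes, with the higher genes making up 41.88% of the counted genes without lane plate 5 and 30.85% with it. The same ranges were 0.996 to 1.366 and 1.059 to 1.18 against streak-positive cells, and 1.067 to 1.408 and 1.167 to 1.548 against extraembryonic ectoderm cells (1.548 for lower genes without lane plate 6). For the streak steps, an alternative added after seeing the data, they were 1.125 to 1.338 and 0.975 to 1.441. TMM kept 83 and DESeq2 size factors 82 of the 83 named genes counted against other cells. The median of all genes moved from -0.08 to -0.04 under TMM and to -0.0008 under DESeq2 size factors. Requiring 5 cells on 7 plates kept 64 of the 83. Those lost were *Gdf3*, *Enpp3*, *Syt11*, *Cer1*, *Lhx1*, *Tdgf1*, *Klf4*, *Lefty2*, *Spred1*, *Gbx2*, *Eomes*, *Gsc*, *Tbx6*, *Cldn7*, *Crb3*, *Itga6*, *Cdkn1a*, *Slc16a1* and *Sox17*. Also chosen after seeing the data, leaving out the cells with *Cer1* and *Sox17* gave ratios of 1.029 and 1.021 against other cells, 0.955 and 1.075 against streak-positive cells and 1 and 1 for the steps, and leaving out those with *Hba-x* left too few cells on lane plate 5, with 1.416 and 0.877. The causes were not tested. No paired analysis was possible because no test was run to which a block could be added. The ratios themselves were taken within plates.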

Other observations

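*Rps3a3*, a gene like the ribosomal protein gene *Rps3a1*, has near-identical copies, so that its counts are uncertain. It fell into 2 groups of epiblast cells. In 17 cells it was at 11.01 CPM or less, and in the rest at 95.9 CPM or more. The low cells were 2 of 5 on embryo 4, 1 of 2 on embryo 5, 3 of 10 on lane plate 5 and 11 of 21 on lane plate 6, with 0 on embryos 1 and 2, the chimera plate and lane plate 4. Among the other E7.5 cells, none was under 20 CPM on embryos 1 and 2 and the chimera plate, while 38.4% were on embryo 4, 26.7% on embryo 5, 30.3% on lane plate 4, 60% on lane plate 5 and 59.7% on lane plate 6. Its rank correlation with *Nanog* within plates had a median of 0.0522 over 110 epiblast cells of 5 plates. What divides these cells was not tested.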
